A study of Mus musculus with 24 samples.

Results

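HCN channels are cation channels that open when the membrane is hyperpolarized and carry the pacemaker current, Ih. Cyclic AMP binds a domain in their C-terminal part and eases opening, most clearly for HCN2 and HCN4, while HCN3 responds little to it. In sensory neurons Ih depolarizes the resting membrane and shapes repetitive firing, and HCN2 has been studied for its part in inflammatory pain. The transcripts described here are those of Hcn2, Hcn3 and Hcn4, chosen by gene symbol, which make 3 of the 47643 gene identifiers counted.

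RNA was sequenced from GFP-positive cells sorted from L4 dorsal root ganglia (DRG) on the side opposite a sciatic nerve crush made 3 d before, in mice of mixed C57BL/6 and AJ background aged 8 to 9 weeks. All 8 mice carried Nav1.8-Cre and the Rosa26-ZsGreen reporter. The 4 control mice were Tsc2 flox/+, so that they too carried 1 floxed Tsc2 allele beside Cre, and the 4 Nav-Tsc2 mice were Tsc2 flox/null. Cre was driven by the Nav1.8 gene, so Tsc2, which encodes an inhibitor of mTORC1, was deleted in neurons with a history of Nav1.8 expression and not in nociceptors alone. Each mouse gave 3 libraries of about 100 cells. In both genotypes mice 1 and 2 were male, and mice 3 and 4 were female. The 24 libraries held between 8339220 and 34228180 counts on genes. Tsc2 itself ranged from 13.4 to 24.7 CPM (counts scaled to a common library total by the TMM method) in control and from 7.30 to 11.0 CPM in Nav-Tsc2 mice, a log2 fold change of -1.24 (SE 0.22, adjusted p = 0.004 by edgeR). In bulk samples, fewer cells of a type and less RNA per cell cannot be told apart.

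The 3 genes are spread over 3 chromosomes. Hcn2 lies on the plus strand at chr10:79716634-79736108 of GRCm38, Hcn3 on the minus strand at chr3:89146074-89160196, and Hcn4 on the plus strand at chr9:58823412-58863175. The channels of this family share a glycine-tyrosine-glycine signature in the pore. The coding bases around it are shown for Hcn3, whose level differed between genotypes, and for Hcn4, so that the transcripts can be compared there. Each window of 27 bases lies in exon 4 of 8, is read 5′ to 3′ on the coding strand from the GENCODE M21 transcripts, and has the glycine-tyrosine-glycine codons in capitals. The windows are at chr3:89150997-89151023 for Hcn3 and chr9:58855582-58855608 for Hcn4.
Hcn3: ctatgcattGGCTATGGGcagcaggca
Hcn4: ctgtgcattGGGTATGGAcggcaggca
Hcn3 and Hcn4 differed at 4 of the 27 bases, 2 of them in the capitalized codons. The capitalized codons of both genes encode the same residues. The codon just after them, cag in Hcn3 and cgg in Hcn4, encodes different ones. Reads were 50 bases long, and none of the 50-base windows of any of the 3 genes' transcripts occurred in another of the 3. For Hcn3, 15.8% of its windows also occurred, on the opposite strand, in transcripts of Pklr, a pyruvate kinase gene whose end overlaps 711 (17.1%) of the 4154 exonic bases of Hcn3. Pklr stayed at or below 0.254 CPM in every mouse.

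Hcn3 was the most abundant of the 3 genes in every mouse on a scale of CPM per kilobase of exon. In control mice its level was 2.79 ± 1.24 CPM per kilobase (SD, n = 4), against 0.323 ± 0.316 for Hcn2 and 0.0326 ± 0.0333 for Hcn4. In Nav-Tsc2 mice the levels were 6.58 ± 0.594 CPM per kilobase for Hcn3, 0.247 ± 0.129 for Hcn2 and 0.0582 ± 0.0337 for Hcn4 (SD, n = 4). Hcn4 lay below Hcn2 in each of the 8 mice, although the mean ± SD ranges of these neighbours in the order overlapped in control mice. Among 17119 tested genes with a known length, 55.2% had a lower control level per kilobase than Hcn3, 18.6% a lower one than Hcn2 and 2.01% a lower one than Hcn4.

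**Figure D1:**
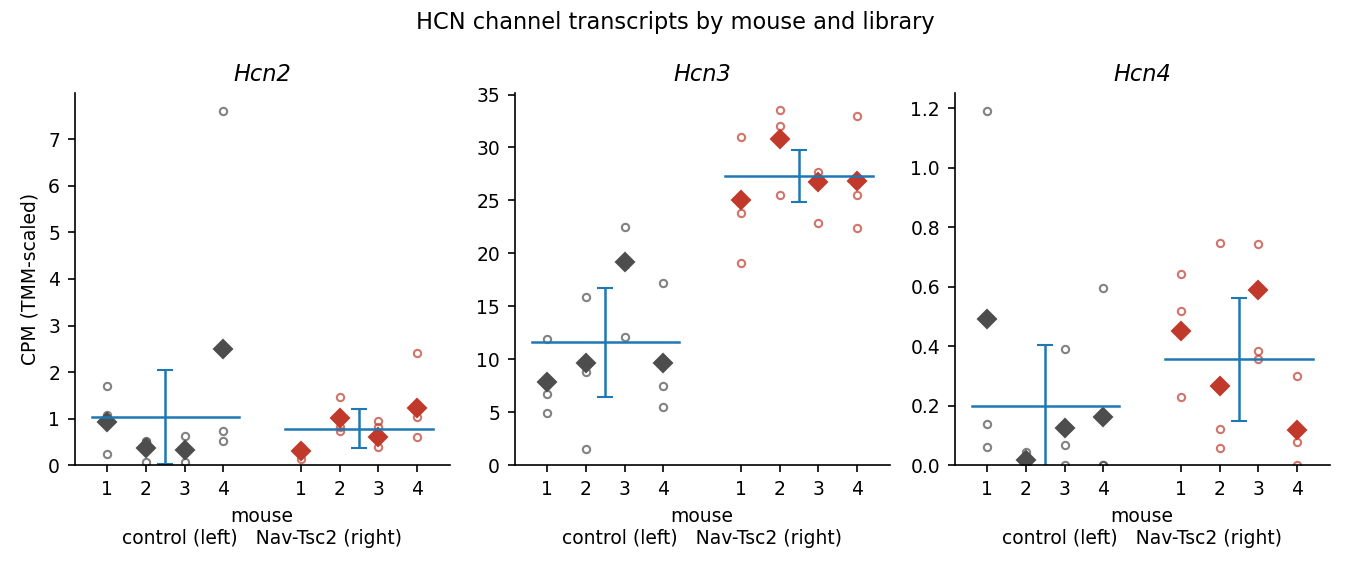
CPM of Hcn2, Hcn3 and Hcn4 (one panel each, linear axes of different range) in the 4 control mice (grey, left) and 4 Nav-Tsc2 mice (red, right). Diamonds are mice, open circles their 3 libraries, and blue lines the genotype mean ± SD over mice, with the lower end of the bar cut at 0 for Hcn4 in control. The Nav-Tsc2 mice lie above every control mouse for Hcn3 only, and single libraries stand far above the rest for Hcn2 in control mouse 4 and Hcn4 in control mouse 1.

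Hcn3 transcript was higher in Nav-Tsc2 than in control mice. Control mice 1 to 4 had 7.91, 9.66, 19.2 and 9.64 CPM of Hcn3. Nav-Tsc2 mice 1 to 4 had 25.0, 30.8, 26.7 and 26.8 CPM. The genotypes did not overlap, although control mouse 3 stood apart from the other control mice and closer to the Nav-Tsc2 mice than they did. The log2 fold change of Hcn3 was 1.24 (SE 0.26, 95% interval 0.65 to 1.83), or 2.36-fold, with an adjusted p of 0.00967 by edgeR. A gene was called when its adjusted p was below 0.05 and its log2 fold change lay beyond 0.5 in either direction, and 1 of the 3 HCN genes passed, where 17.1% of the 17178 genes tested were called in either direction and 9.12% were called higher. Mice of the 2 genotypes did not overlap for 26.9% of all genes tested. Of the genes called higher, 47.5% had a larger log2 fold change than Hcn3.

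The libraries within a mouse carried the same difference with more scatter in control mice. The 12 control libraries held 24 to 664 Hcn3 counts each and ranged from 1.58 to 22.5 CPM, with a median of 10.4. The 12 Nav-Tsc2 libraries held 191 to 941 counts each and ranged from 19.1 to 33.5 CPM, with a median of 26.3. A single control library, 3B, exceeded the lowest Nav-Tsc2 library. The coefficient of variation over the 3 libraries of a mouse had a median of 54.3% in control and 17.1% in Nav-Tsc2 mice. Tested on 1 library of each mouse, the log2 fold change was 1.60 in the A libraries (adjusted p = 0.0618), 1.12 in the B libraries (adjusted p = 0.313) and 1.08 in the C libraries (adjusted p = 0.0193, all by edgeR).

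The difference in Hcn3 was called in males and not in females. Within males the log2 fold change was 1.66 (SE 0.21, adjusted p = 0.0107 by edgeR), and within females, where control mouse 3 lies, it was 0.89 (SE 0.35, 95% interval 0.01 to 1.77, adjusted p = 0.241 by edgeR). The difference between the sexes, tested as the sex by genotype term, was -0.78 (SE 0.44, adjusted p = 0.666 by edgeR), with a 95% interval from -1.81 to 0.25. Without control mouse 3 the log2 fold change of Hcn3 was 1.58 (adjusted p = 0.000253 by edgeR).

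Markers of neuron types varied with genotype and among the control mice. The summed level of 5 nonpeptidergic markers, Mrgprd, P2rx3, Lpar3, Ret and Gfra2, was 439, 339, 1360 and 1150 CPM in control mice 1 to 4 and between 1510 and 1650 CPM in Nav-Tsc2 mice. Control mouse 3, the control mouse with the most Hcn3, also had the highest nonpeptidergic sum, while control mouse 4 had a sum nearly as high with 9.64 CPM of Hcn3. None of the 5 nonpeptidergic markers was called. The 3 peptidergic markers, Calca, Tac1 and Adcyap1, summed to between 7030 and 16900 CPM in control and between 2650 and 5160 CPM in Nav-Tsc2 mice, and Calca was called lower. The part of neuron types in the Hcn3 difference was not tested.

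Other cell types were checked in the same way. The 4 Nav1.8 nociceptor markers summed to 1820 to 2550 CPM in control and 2250 to 3010 CPM in Nav-Tsc2 mice, with Prph called higher. Of the 4 low-threshold C-fiber markers 1, Th, was called higher, and the list summed to 65.2 to 381 CPM in control and 338 to 1690 CPM in Nav-Tsc2 mice. Of the 7 myelinated mechanoreceptor and proprioceptor markers Ldhb and Cntn1 were called lower, and the list summed to 1370 to 2080 CPM in control and 800 to 1010 CPM in Nav-Tsc2 mice. Each neuron list thus held markers with counts in the sorted cells, which alone does not show that each neuron type was present. In the myelinated list Nefh averaged 662 CPM in control and 486 CPM in Nav-Tsc2 mice. Pvalb averaged 1.08 and 5.54 CPM, and Spp1 1.41 and 6.45 CPM. The 9 satellite glia and Schwann cell markers summed to 1480 to 1700 CPM in control and 505 to 822 CPM in Nav-Tsc2 mice, with S100b as the 1 called gene.

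Markers of endothelial cells, macrophages and red blood cells were low, whereas the fibroblast and mural cell list was higher. The 5 endothelial markers summed to at most 1.83 CPM in control and 5.81 to 15.5 CPM in Nav-Tsc2 mice, with Flt1 and Kdr called higher, while Cldn5 and Cdh5 stayed at or below 0.0617 and 0.261 CPM. The macrophage list was at most 3.92 CPM in control and 7.90 to 17.3 CPM in Nav-Tsc2 mice, with Cx3cr1 called higher of 6. Csf1r (mean 0.803 CPM in control and 3.71 CPM in Nav-Tsc2 mice) and Cd68 (0.495 and 2.03 CPM) were not called. Their mice did not overlap between genotypes, as was so for 26.9% of all genes tested. Aif1 overlapped (0.87 and 1.10 CPM), and C1qa and Adgre1, at most 0.0846 and 0.783 CPM in any mouse, were too low to be tested. The 7 fibroblast and mural cell markers summed to 79.4 to 244 CPM in control and 143 to 258 CPM in Nav-Tsc2 mice. Pdgfrb and Acta2 were called higher, and the other 5 were not called. Dcn, with the highest mean of the list, averaged 155 CPM in control and 113 CPM in Nav-Tsc2 mice (log2 fold change -0.46). Rgs5 had 38.7 CPM in control mouse 4, and 90.6 and 124 CPM in Nav-Tsc2 mice 1 and 4. In the other mice Rgs5 was at most 2.24 CPM. The 3 red blood cell markers summed to at most 1.66 CPM with none called. Flt1 and Cx3cr1 had at most 3 counts in a control mouse, Acta2 at most 14 and Kdr at most 45. All of them passed the filter for low counts through the Nav-Tsc2 group. The part of these non-neuronal cells in the Hcn3 difference was not tested.

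**Figure D2:**
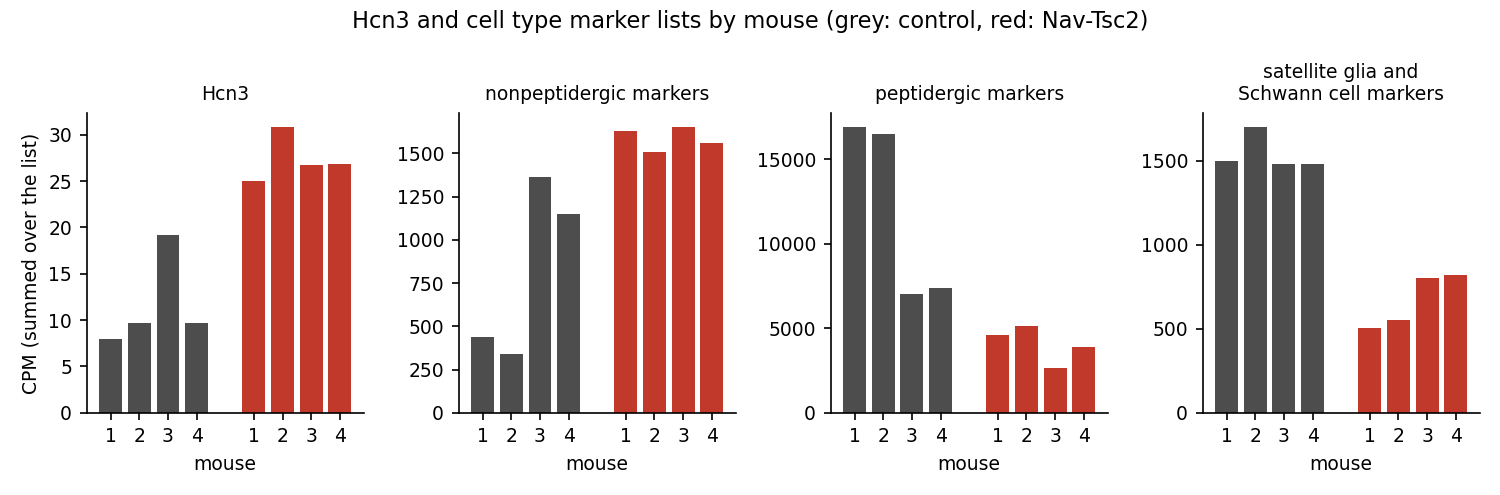
CPM of Hcn3 and the CPM summed over 3 marker lists (nonpeptidergic, peptidergic, satellite glia and Schwann cell) in each mouse, with axes from 0 and of different range. Grey bars are control mice 1 to 4 and red bars Nav-Tsc2 mice 1 to 4. Control mice 3 and 4 share a high nonpeptidergic sum (1360 and 1150 CPM), whereas Hcn3 was raised only in control mouse 3 (19.2 CPM).

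Hcn2 showed no difference that exceeded the spread between mice. Control mice 1 to 4 had 0.932, 0.379, 0.326 and 2.49 CPM of Hcn2. Nav-Tsc2 mice 1 to 4 had 0.309, 1.01, 0.604 and 1.24 CPM. The genotypes overlapped, and the highest mouse was control mouse 4. The log2 fold change was -0.38 (SE 0.75, adjusted p = 0.773 by edgeR), and its 95% interval from -2.06 to 1.30 leaves room for a change of either sign. Library 4A of control held 102 of the 124 Hcn2 counts of that mouse, 82.3%, and leaving out control mouse 4 turned the log2 fold change to 0.53 (adjusted p = 0.663 by edgeR). The median library held 9.5 Hcn2 counts in control and 14.5 in Nav-Tsc2 mice.

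Hcn4, the main HCN isoform of the cardiac pacemaker, was near the limit of detection. Control mice 1 to 4 had 0.491, 0.0189, 0.127 and 0.161 CPM of Hcn4, from 29, 1, 7 and 8 counts. Nav-Tsc2 mice 1 to 4 had 0.453, 0.265, 0.588 and 0.118 CPM, from 22, 15, 36 and 7 counts. A count was present in 7 of 12 control and 11 of 12 Nav-Tsc2 libraries, and the genotypes overlapped. The log2 fold change was 0.82 (SE 0.89, 95% interval -1.17 to 2.82, adjusted p = 0.573 by edgeR). Library 1B of control held 25 of the 29 counts of that mouse, and without control mouse 1 the log2 fold change was 1.78 (adjusted p = 0.241 by edgeR). These intervals cover the spread between mice, and the reads were amplified without molecular identifiers, so a few counts in 1 library need not be separate molecules.

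Hcn3 made up most of the summed level of the 3 genes in every mouse. Of the summed CPM per kilobase, Hcn3 took 83.7, 95, 97.4 and 74.2% in control mice 1 to 4 and 97.2, 95.4, 95.8 and 94.1% in Nav-Tsc2 mice 1 to 4. Hcn2 took between 2.14 and 24.9% in control and between 1.56 and 5.64% in Nav-Tsc2 mice, and Hcn4 at most 3.53%. The ranges of the genotypes overlapped for each gene, and the 24.9% of Hcn2 rested on library 4A of control.

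**Figure D3:**
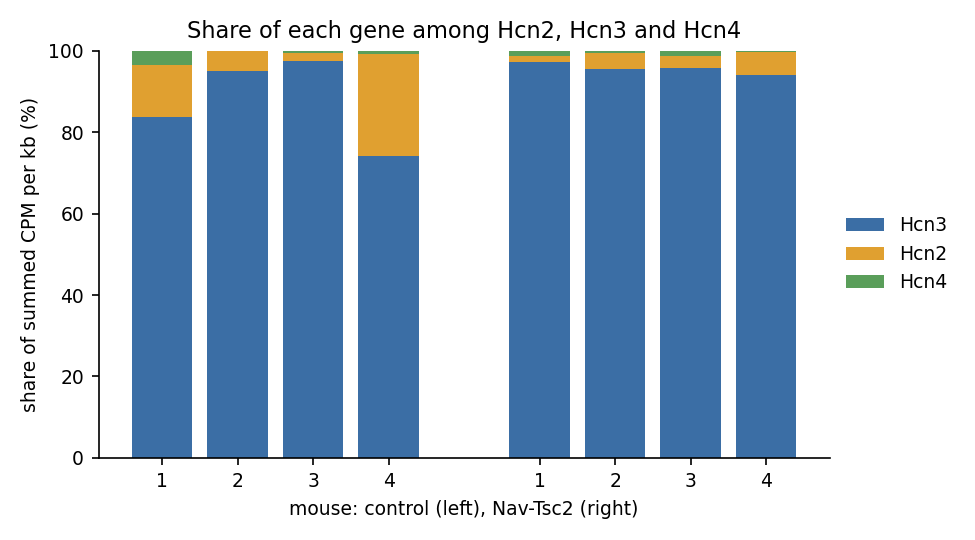
Share (%) of Hcn3, Hcn2 and Hcn4 in their summed CPM per kilobase of exon, in control mice 1 to 4 (left) and Nav-Tsc2 mice 1 to 4 (right), with the axis from 0 to 100. Hcn3 made up 74.2 to 97.4% in control and 94.1 to 97.2% in Nav-Tsc2 mice.

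**Figure D4:**
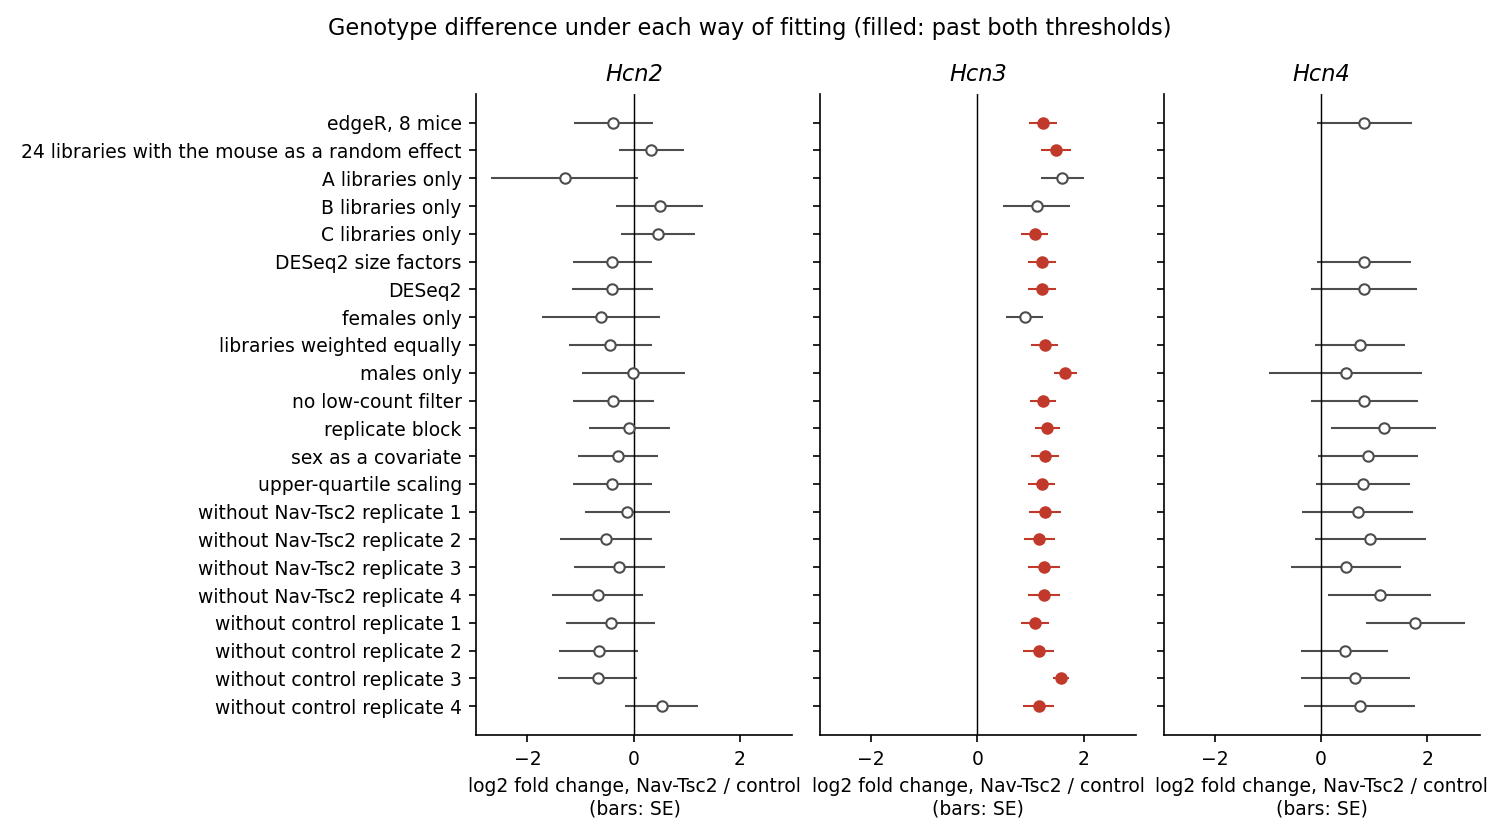
Log2 fold change (Nav-Tsc2 over control) of Hcn2, Hcn3 and Hcn4 with its SE, for the edgeR fit of 8 mice and each other way of fitting, on 1 shared axis. Filled red points passed both thresholds and a missing point means that the gene was removed by the low-count filter. Hcn3 lay above 0 in each fit, from 0.89 to 1.66, and Hcn2 lay on either side of 0.

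The genes next to the 3 channel genes were read for the same comparison. On chromosome 3, Fdps, which encodes an enzyme of isoprenoid synthesis, was called higher (log2 fold change 0.60, SE 0.09, adjusted p = 0.00157 by edgeR), while Clk2, a kinase gene 4599 bases from Hcn3, was not (log2 fold change 0.68, adjusted p = 0.0742 by edgeR). Bsg and Polrmt beside Hcn2 had 0.16 and 0.31, and Rec114 and Neo1 beside Hcn4 had -0.56 and 0.45, none of them called. Polrmt ends 15 bases from Hcn2 on the opposite strand.

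The genes whose levels followed Hcn3 most closely over the 8 mice, among 8444 genes with a mean of at least 10 CPM, were Gda (Pearson's r 0.991, Spearman's rho 0.976), Marc2 (r 0.990, rho 0.976) and Mindy2 (r 0.986, rho 0.929). All 3 were called higher, with log2 fold changes of 2.09, 0.63 and 0.72. For Hcn2 the closest were Pon2 (r 0.915), Rhno1 (r 0.913) and Spns1 (r 0.898), none of them called. These values describe 8 mice that share a genotype split, and were taken as the highest of all genes compared.

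Proteins and signals that act on HCN channels, and relatives of these channels, were followed in 7 lists of 92 genes, of which 77 were tested. Of these 77, 9 were called higher and 9 lower, 23.4% against 17.1% of all genes tested, of which 8.00% were called lower. Their median log2 fold change was -0.14, and that of all genes tested was 0.01.

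Among 12 genes for HCN accessory proteins, which bind the channels or set their trafficking, 10 were tested, 2 were called higher and none lower, with a median log2 fold change of 0.13. Apba2, an adaptor protein gene, averaged 25.7 CPM in control and 65.0 CPM in Nav-Tsc2 mice (log2 fold change 1.34, adjusted p = 0.000433 by edgeR). Flna, which encodes filamin A, an actin crosslinker, averaged 14.3 and 38.9 CPM (log2 fold change 1.45, adjusted p = 0.000448 by edgeR). Neither gene's mice overlapped between genotypes, as was so for 26.9% of all genes tested. Vapa, the member with the highest level, had a log2 fold change of 0.05.

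Of 14 channel relatives that carry a cyclic-nucleotide-binding or related domain, 9 were tested and 2 were called higher, both at low levels, with a median log2 fold change of 0.27. Cngb1, a cyclic-nucleotide-gated channel subunit gene, averaged 0.264 CPM in control and 2.61 CPM in Nav-Tsc2 mice (log2 fold change 3.29, adjusted p = 0.0254 by edgeR). Leaving out any 1 of the Nav-Tsc2 mice ended the call (adjusted p from 0.0503 to 0.0726 by edgeR). With 32, 1, 3 and 22 counts in control mice 1 to 4, Cngb1 passed the low-count filter through the Nav-Tsc2 group. Kcnh4, a voltage-gated potassium channel gene, had 3 counts in all control mice together and 314 in Nav-Tsc2 mice, a ratio of 104 with a 95% counting interval of 35.2 to 507. That interval pools amplified reads over mice and covers counting error only, not the spread between mice. Single control mice had 0 to 2 counts and Nav-Tsc2 mice 53 to 111, so the gene passed the low-count filter through the Nav-Tsc2 group. Kcnh7, with the highest level, had a log2 fold change of -0.38.

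Adenylyl cyclases make cAMP and phosphodiesterases break it down. None of the 8 tested adenylyl cyclase genes was called, with a median log2 fold change of -0.72, and Adcy5, the highest, had 0.14 (adjusted p = 0.55 by edgeR). Of 15 tested cAMP phosphodiesterase genes, 3 were called higher and 3 lower, with a median of -0.07. Pde8a, whose product hydrolyses cAMP with high affinity, had 2.76 to 4.74 CPM in control and 18.3 to 24.6 CPM in Nav-Tsc2 mice (log2 fold change 2.67, adjusted p = 6.91e-05 by edgeR). Its relative Pde8b moved the other way, from 26.7 to 64.0 CPM in control to 11.6 to 22.1 CPM in Nav-Tsc2 mice (log2 fold change -1.71, adjusted p = 0.00397 by edgeR).

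The other phosphodiesterase genes called were Pde4c and Pde1a, which were lower, and Pde7a and Pde3a, which were higher. Pde4c had the steepest fall, from 15.0 to 26.0 CPM in control to 0.254 to 1.75 CPM in Nav-Tsc2 mice (log2 fold change -4.26, adjusted p = 0.000448 by edgeR). Pde7a had a log2 fold change of 1.14, Pde3a of 1.96 and Pde1a of -1.46. Pde3a lost its call without any of 6 of the 8 mice in turn (adjusted p from 0.053 to 0.084 by edgeR), and Pde1a without control mouse 1 (0.0571) or Nav-Tsc2 mouse 1 (0.0664).

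Of 8 cAMP effector genes, 1 was called, with a median log2 fold change of -0.15. Rapgef3, which encodes the cAMP-activated exchange factor EPAC1, had 3 counts in all control mice together and 624 in Nav-Tsc2 mice, a ratio of 206 with a 95% counting interval of 70.3 to 1000. This interval too covers counting error only, and with at most 1 count in a control mouse the gene passed the filter through the Nav-Tsc2 group. Prkar1a, a regulatory subunit gene of protein kinase A and the highest of the list, was not called (log2 fold change 0.26, adjusted p = 0.0664 by edgeR).

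Receptors coupled to Gs raise cAMP. Of 12 tested genes of the Gs list, 3 fell and 1 rose past the thresholds, and the median log2 fold change was -1.46. The receptor genes for prostacyclin, Ptgir, and prostaglandin E2, Ptger4, fell by 2.70 and 1.91 on the log2 scale (adjusted p = 0.00109 and 0.00675 by edgeR), and Calcrl, part of the CGRP receptor, fell by 3.21. Adora2b, an adenosine receptor gene, rose from between 1.25 and 5.15 CPM to between 14.3 and 32.9 CPM (log2 fold change 2.72, adjusted p = 0.00222 by edgeR). Gnal, the highest of the list, had a log2 fold change of 0.23.

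Receptors coupled to Gi/o lower cAMP, and 3 of 15 tested genes of the Gi/o list were called lower and none higher. The list had a median of -0.24 on the log2 fold scale. Npy2r, a neuropeptide Y receptor gene, had 56.6 to 111 CPM in control and 5.86 to 9.53 CPM in Nav-Tsc2 mice (log2 fold change -3.37, adjusted p = 4.58e-05 by edgeR). Oprm1, the mu opioid receptor gene, and Gnai1, an inhibitory G protein gene, had log2 fold changes of -1.02 and -0.63, and for each the mice of the 2 genotypes overlapped. Each of these calls was lost in 6 of the 8 fits that left out a mouse (adjusted p up to 0.0814 for Oprm1 and 0.0959 for Gnai1 by edgeR). Gnao1, the highest of the list, had a log2 fold change of -0.24.

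**Figure D5:**
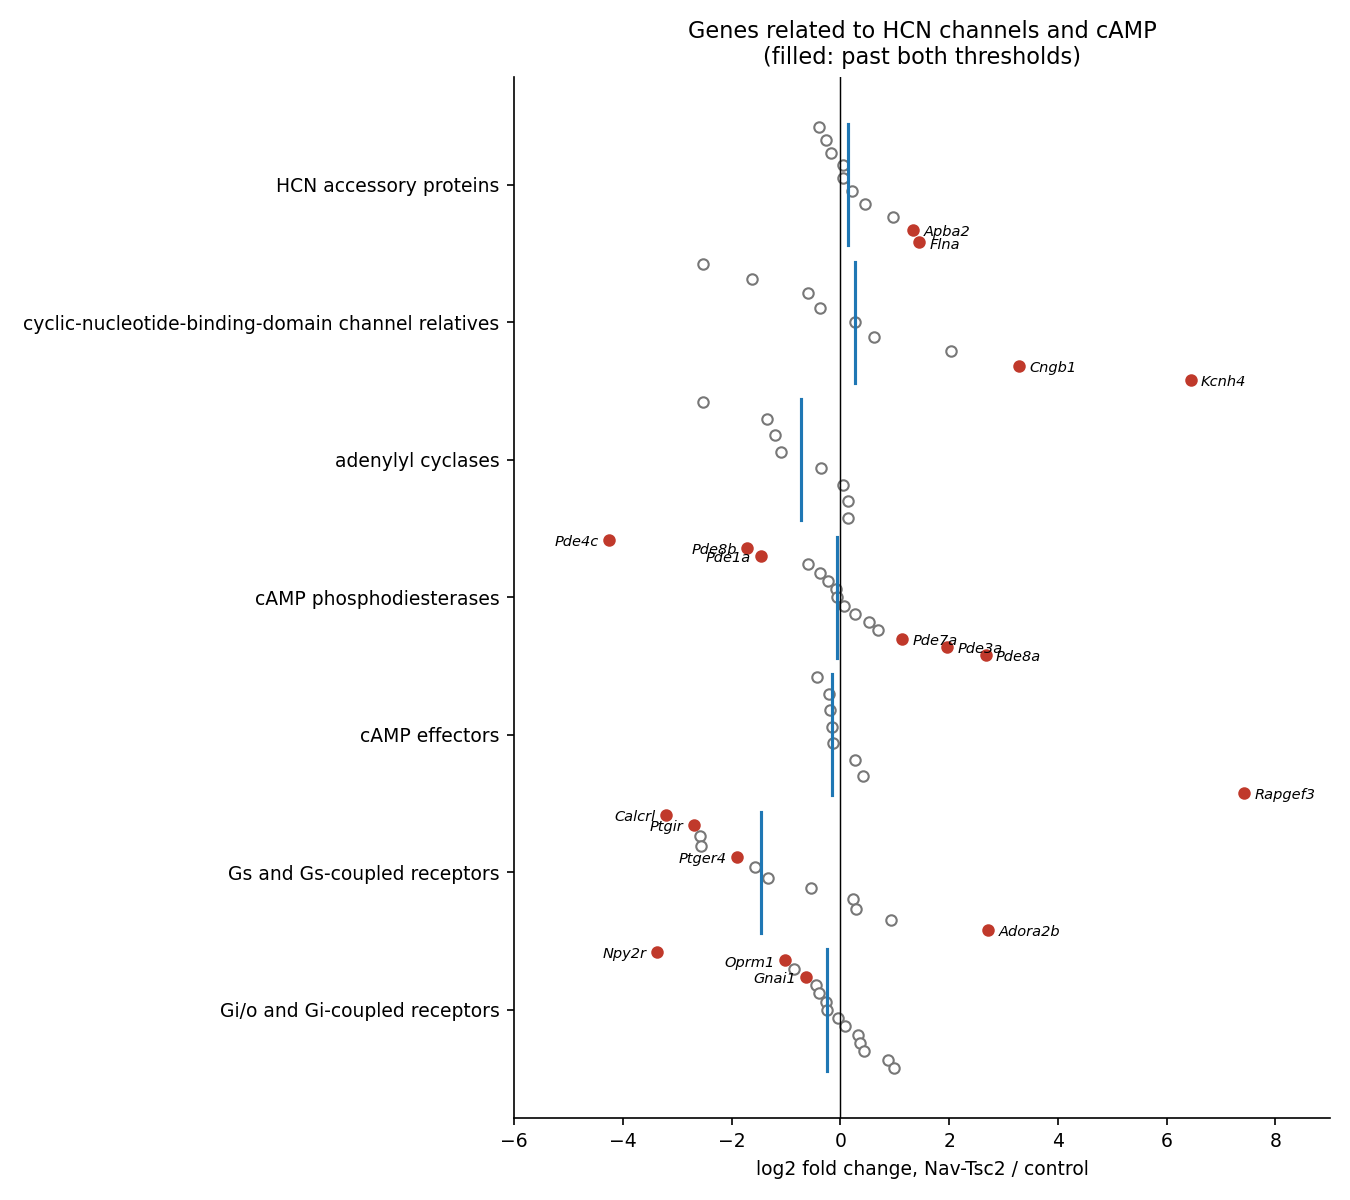
Log2 fold change (Nav-Tsc2 over control) of each tested gene in 7 lists of genes related to HCN channels and cAMP, 1 point per gene, with filled red points for genes past both thresholds and a blue line at the list median. The Gs list has the lowest median, -1.46, with 8 of its 12 tested genes not called. The phosphodiesterase list holds 3 called genes in each direction.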

How the data were processed

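Reads of 50 bases were made from amplified cDNA (13 and 15 cycles) of about 100 sorted cells per library. The authors aligned them to mm10 with STAR and deposited 1 HTSeq count per gene and library, without normalization; tool versions and the strand setting are not given in the sources used here. Rows that name no gene held 47.58 to 55.90% of a library's total and were left out. The authors' own table of a DESeq2 comparison (fold changes, p-values and size-factor-scaled values) was not used.

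The 3 libraries per mouse were added up, filtered with filterByExpr, scaled by TMM and tested with the quasi-likelihood F-test of edgeR 4.0.16 (R 4.3.3), with Benjamini-Hochberg adjustment over 17178 genes. The SE was the log2 fold change over the square root of F. DESeq2 1.42.0 and limma 3.58.1 gave alternatives. The fit was tested on simulated data. Lengths and positions came from GENCODE M21 (GRCm38), and the files' gene identifiers may follow another release. Of the identifiers, 47224 matched a symbol. Of the 92 related genes, 91 were matched, and the other is not analysed here. Likeness was Pearson's r of log2(CPM + 0.5) for HCN genes with at least 10 counts in every mouse, which left out Hcn4.

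Genes named were the 3 HCN genes, Tsc2, their neighbours, up to 4 called genes per direction and the highest gene per kilobase in each list, and the 3 most alike. Marker genes named as called, and Cldn5, Cdh5, Dcn, Rgs5, Nefh, Pvalb, Spp1 and the other macrophage markers, were picked after their values were seen. One marker gene and one sequence are not reported here. The HCN genes and all lists were chosen with earlier results of these data known.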

Additional observations from a re-analysis of the deposited data

Results flagged for a closer look

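Among 54 groups of 4 mice checked, for the HCN genes, Tsc2 and the named related genes, 4 held a mouse whose gap to the nearest other mouse was a larger share of the group's range than Dixon's 95% critical value. Chance alone marks about 1 group in 20. Control mouse 3 had 19.2 CPM of Hcn3, where the other control mice had 7.91 to 9.66. The same mouse had 55.3 CPM of Ptgir, where the others had 190.0 to 204 CPM. Nav-Tsc2 mouse 3 had 54.2 CPM of Kcnh7, below the 68.3 to 70.2 CPM of the others, and 4.77 CPM of Ptger4, above their 1.52 to 2.07 CPM. None of the 3 HCN genes differed between the sexes in its genotype effect at an adjusted p under 0.05 (edgeR, adjusted p from 0.666 to 0.952, none with an unadjusted p under 0.05), and 1 of 17178 genes did.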

How the results depend on the processing

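Hcn3 stayed higher in Nav-Tsc2 mice in 22 of 22 alternatives, and was past the thresholds in 19, including DESeq2 (1.22) and each fit without 1 mouse (1.09 to 1.58). It was not past them in the A libraries (1.60), the B libraries (1.12) or females only (0.89), while males only, with as many mice, gave 1.66 and a call. The log2 fold change of Hcn2 turned positive in 4 of 22 alternatives: 0.33 with 24 libraries and the mouse as a random effect, 0.49 in the B libraries, 0.46 in the C libraries and 0.53 without control mouse 4. Without 1 mouse it ranged from -0.68 to 0.53, and that of Hcn4 from 0.45 to 1.78. Hcn4 stayed positive and uncalled in 17 alternatives, and was removed by the low-count filter in females only, in the A, B and C libraries and in the 24-library fit. For each of the 3 genes, 1 alternative kept the main fit and only dropped the fold threshold, so it could not change the sign or lose a call. All 3 genes passed the main filter, so the permutation test planned for filtered genes was not run.

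Calls among related genes, 18 in the main test, numbered 5 in the A libraries, 11 in the B libraries and 4 in females only against 23 in males only, 26 by DESeq2, and 13 to 21 without 1 mouse. Calls across all genes, 2941 in the main test, numbered 479, 1411 and 1683 in the A, B and C libraries and 494 in females only against 2584 in males only, 4182 by DESeq2, and 2145 to 3502 without 1 mouse. The females-only and males-only fits had the same number of mice, and the cause was not tested. The shares of the 3 genes moved by less than 1 SD with transcript length or equal weighting of libraries.

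Whether equal replicate numbers pair the mice depended on the scale. Same-numbered deviations correlated at 0.101, 0.121, 0.0341 and 0.124 on log2(CPM + 0.5), and at 0.184, 0.185, 0.108 and 0.199 on edgeR's log2 CPM with a prior count of 2, so a limit of 0.1 was met by every pair on the second scale only; the second scale was tried after the first had been seen. Pairs of one sex with unequal numbers reached 0.198 on the second scale. With the replicate block the log2 fold changes were 1.32 for Hcn3 (adjusted p = 0.016), -0.08 for Hcn2 and 1.18 for Hcn4 (edgeR), and no call of the 3 genes changed.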
